A study of Saccharomyces cerevisiae with 6 samples.

Results

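The 162 antisense transcripts described here each lie opposite 2 or more genes of budding yeast (*Saccharomyces cerevisiae*) and are the longest transcript listed for at least 1 of them. The rule that picked them uses coordinates alone, and it was set with earlier results of these data known. They were taken from 2169 distinct antisense transcripts, of which 1973 lie opposite a single gene and 34 lie opposite several genes but are the longest for none. Together they form 334 combinations of a transcript with a gene and involve 330 genes. Each is called here by the genes opposite it, in the order in which the transcript meets them.

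Antisense transcripts are made by RNA polymerase II from the strand opposite a gene, and many of them are destroyed soon after they are made. CUTs (cryptic unstable transcripts) are removed by the nuclear exosome, XUTs (Xrn1-sensitive unstable transcripts) by the cytoplasmic exonuclease Xrn1, and SUTs (stable unannotated transcripts) are longer lived. Of the members 100 are XUTs, 36 are CUTs and 26 are SUTs. Dbp2 is an RNA helicase of the DEAD-box family that acts on RNA as it is transcribed.

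Newly made RNA was measured by TT-seq, a method that marks RNA made during a brief pulse of a uracil analog, so that older RNA is left behind when the marked molecules are pulled out. Wild-type libraries came from BY4741 (*MATa* with *his3Δ1*, *leu2Δ0*, *met15Δ0* and *ura3Δ0*), and *dbp2Δ* libraries from BTY116 (*MATα* with *dbp2::KanR*, *ura3Δ0*, *leu2Δ0* and *his3Δ0*, and wild-type for *TRP1*, *MET* and *LYS*), which lacks the DEAD-box RNA helicase Dbp2. Both strains carried the empty plasmid pRS426 and grew without uracil in 2% glucose at 30 °C to an OD600 of 0.5, and 4-thiouracil was given at 0.32 mg/ml for 10 min. With 3 biological replicates of each strain, every comparison asked which of these transcripts and genes changed without *DBP2*, and the deletion, the mating type and the other markers cannot be told apart. In cultures measured in bulk, less RNA in each cell and fewer cells that make the RNA cannot be told apart either.

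The deleted gene *DBP2* was at 10976 to 11213 raw counts in the wild-type libraries and at 0 to 2 in the *dbp2Δ* libraries. The mating type genes followed the labels, with *STE2* at 11313 to 15997 in the former and 134 to 168 in the latter, but *LYS2* was at 0 to 1 in wild-type libraries although its label lists no *lys2* allele. Gene counts summed to 11177517 to 13134963 in wild-type libraries and 6968216 to 8659542 in *dbp2Δ*, and the members held 10.9% to 14.1% of the antisense counts of a library. Wild-type libraries were less alike than *dbp2Δ* libraries. In wild-type 10 members of replicate 3, 6 of replicate 1 and 4 of replicate 2 lay more than 1 log2 unit from the mean of the other libraries, against 0 in each *dbp2Δ* library. The spread between replicates (biological coefficient of variation) was 23.4% in wild-type and 7.98% in *dbp2Δ* over the members.

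The members ran from 233 to 4913 bp, with a median of 1322.5 bp against 633 bp for transcripts opposite a single gene. A total of 152 lie opposite 2 genes and 10 opposite 3. Because genes on 1 strand face the same way, an antisense transcript that leaves the body of the first gene crosses the promoter of that gene before it reaches the 3′ end of the next. The start codon of the first gene lay inside the transcript in 160 of 162 members, and that of the last gene in 44. The median share of the gene covered was 83.5% for the first gene and 39.3% for the last. The part of a transcript outside its genes, where the untranslated ends of the genes also lie, had a median of 365 bp. Every gene lay wholly opposite the transcript in 22 members, and in 71 no gene did.

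In 21 members the transcript shares at most 30 bp with 1 of its genes. The stretches of 4 such genes named below are shown because there the transcript and the gene were counted over almost separate DNA. They are written 5′ to 3′ on the strand of the gene, from the R64 genome of RefSeq, with the stop codon (*SNL1*, *YJU3*, *SSA4*) or the start codon (*GYP5*) in capitals. The *SNL1* stretch lies at chrIX:321911-321933 (plus strand), that of *YJU3* at chrXI:264261-264290 (plus strand), that of *SSA4* at chrV:366509-366517 (plus strand) and that of *GYP5* at chrXVI:79332-79353 (minus strand).
SNL1: aaagtttggactctcttaaaTAA
YJU3: aaacacaccacgaccgaagctaaaccaTAA
SSA4: gttgatTAG
GYP5: ATGtcttcagacaaatctattg

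In 26 members the opposite genes overlap each other. At *PRM10*, a pheromone-regulated membrane protein, and YJL107C, an uncharacterised reading frame, the overlap is a single 4 bp stretch at which the *PRM10* start codon and the stop codon of YJL107C interlock, shown in capitals on the minus strand of chrX:218840-218869.
PRM10/YJL107C: tcttccaggttgtATGAttgtttcatttgg

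**Figure D1:**
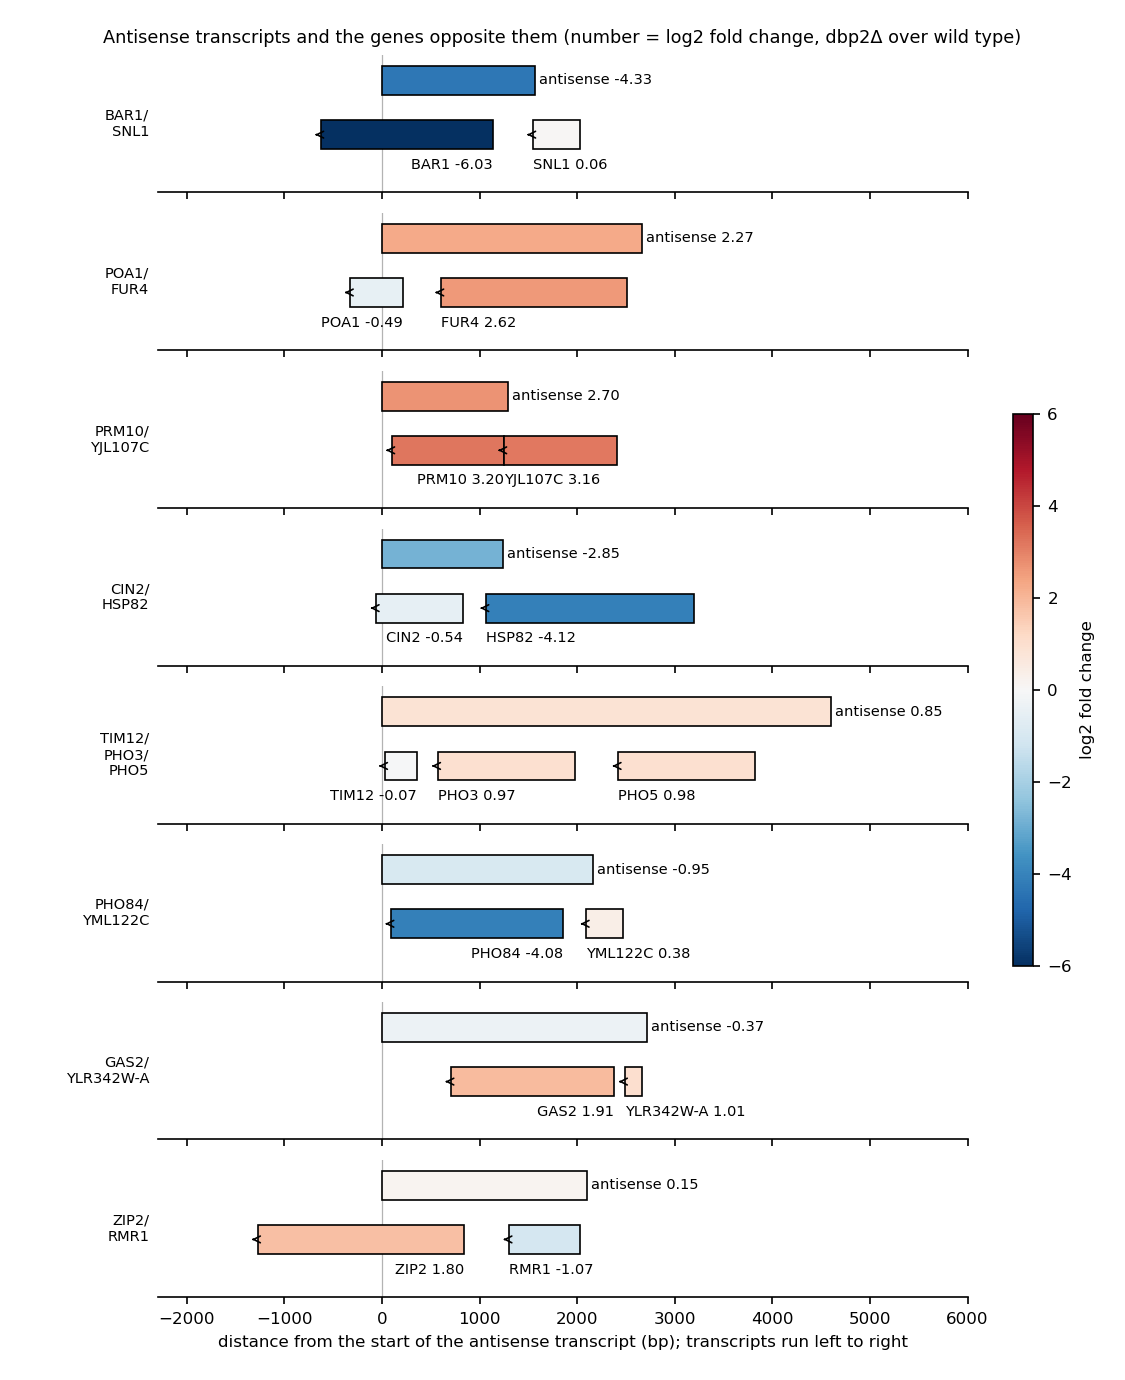
Maps of 8 antisense transcripts drawn to scale (upper boxes, running left to right) with the genes opposite them (lower boxes, arrowheads at the 3′ end), against the distance from the transcript start in bp. Colour and number give the log2 fold change of *dbp2Δ* over wild-type, from -6.03 for *BAR1* to 3.20 for *PRM10*, and neighbouring genes below the same transcript often differ in colour.

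The transcripts moved in both directions in *dbp2Δ*, and 20 of 162 had a log2 fold change above 1 or below -1. Of the 162 members, all of which were tested, 33 rose and 29 fell in *dbp2Δ*, and 100 did not pass an adjusted p of 0.05 (edgeR's quasi-likelihood test, adjusted over all transcripts). The 62 called members are 38.3% of the set, against 42.1% called of all 2167 transcripts tested. Higher calls made up 20.4% of the members and 23.4% of all transcripts, and lower calls 17.9% and 18.7%. The median log2 fold change was -0.02 over the members and 0.05 over all transcripts. The strains did not overlap in 90 members (55.6%, against 55.8% of all transcripts), where the exact two-sided permutation test over 6 libraries gave 0.1, the smallest p it can give. Among XUTs 19 rose and 19 fell, among CUTs 8 and 5, and among SUTs 6 and 5. The balance of directions moved with the scaling: 29 rose and 34 fell with antisense counts scaled on their own totals, and 36 rose and 23 fell with library size alone. Without wild-type replicate 3, 38 rose and 34 fell. Without *dbp2Δ* replicate 2 the calls numbered 38 (24 up and 14 down), and without *dbp2Δ* replicate 3 to 38 (25 up and 13 down).

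The genes opposite the members also moved in both directions. Of 330 genes 301 passed the filter on low counts. In *dbp2Δ* 64 of these rose, 56 fell and 181 did not pass the test (39.9% called, against 41.9% of all 5943 genes tested, of which 20.0% rose and 21.9% fell). With library size alone 68 rose and 45 fell. Of the 62 called transcripts, 22 had every tested opposite gene called in the same direction and 52 had at least 1 called in that direction. A further 10 had no opposite gene called. Of the 100 transcripts that did not pass, 43 had at least 1 opposite gene called. These counts are descriptions, with no share over all transcripts beside them. Transcript and gene may share reads, and agreement between them was not tested. Without *dbp2Δ* replicate 2 the gene calls numbered 78 and without replicate 3 to 76, and the members with every tested gene called the same way numbered 13 when *dbp2Δ* replicate 1, 2 or 3 was left out.

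The counts of a member and of its genes may share reads. The libraries were made with a directional kit, but how the counting used strand was not found in the labels, the methods or the supplementary description of the data, and the counts of a gene and of the transcript opposite it cannot be taken as separate. For all 115 genes that lie wholly opposite a member, the transcript count was at least the gene count in every library. In all 19 members whose genes lie wholly inside and apart from each other, it was at least the sum of the gene counts, and in wild-type that sum was 3.44% to 97.9% of the transcript count (median 78.8%). If reads are spread evenly along each gene, the gene counts of the shared stretches came to a median of 68.3% of the transcript count in wild-type and 66.2% in *dbp2Δ*. For 43 of the 115 wholly covered genes, the transcript count was at least 4 times the gene count in every library. A rise or fall of a transcript below is a change of its count, which may hold reads of its genes. How far shared reads set these changes was not tested, and the gene share is given for some of the loci named.

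**Figure D2:**
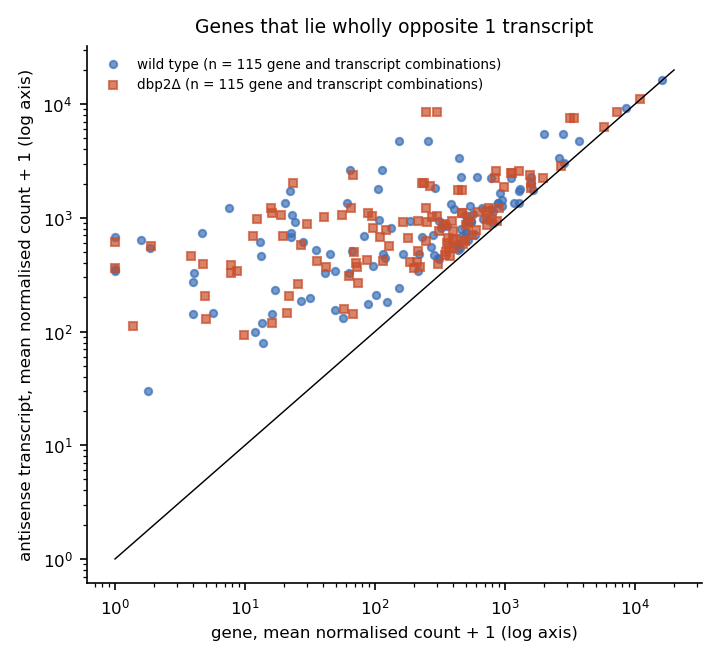
Mean normalised count of the antisense transcript against that of the gene, both plus 1 on log axes, for the 115 combinations in which the gene lies wholly opposite a member (circles, wild-type; squares, *dbp2Δ*; the line marks equal counts). All points lie on or above the line, and some transcripts opposite genes with almost no counts lie far above it.

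The largest fall was at *BAR1/SNL1*, a SUT of the minus strand at chrIX:321911-323479. *BAR1* encodes the protease that *MATa* cells secrete to degrade α-factor, and *SNL1* a membrane-anchored partner of Hsp70 chaperones. The transcript had 4755, 5118 and 6512 in wild-type and 297, 267 and 252 in *dbp2Δ* (counts scaled to equal library size, as in all values below). All wild-type libraries were above all *dbp2Δ* libraries, and the log2 fold change was -4.33 (SE 0.20, edgeR adjusted p = 3.75e-05). *BAR1*, with 1138 of the 1764 bp covered, was at 7147, 7796 and 9339 in wild-type and 137, 105 and 129.5 in *dbp2Δ*, a change of -6.03 (SE 0.20, edgeR adjusted p = 4.95e-06). *SNL1* shares only the 23 bp shown above with the transcript and had 195, 237 and 244 in wild-type and 306, 203 and 199.9 in *dbp2Δ*, and there the strains overlapped (log2 fold change 0.06, SE 0.21, edgeR adjusted p = 0.815). The ratio of transcript to *SNL1* therefore fell (log2 change -4.37, SE 0.14, edgeR adjusted p = 0.000157). The ratio of transcript to *BAR1* rose (log2 change 1.70, SE 0.09, edgeR adjusted p = 0.00069), since the gene fell further than the transcript. The shared stretches of both genes came to 95.8% in wild-type and 33.5% in *dbp2Δ*, as percentages of the transcript count. The strains differ in mating type, and the part of this in the fall was not tested.

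The largest rise was at *PRM10/YJL107C*, a SUT of the plus strand at chrX:217604-218892 that spans *PRM10* and enters YJL107C by 40 bp. The transcript had 289, 488 and 247 in wild-type and 2323, 2125 and 2224 in *dbp2Δ*, a log2 fold change of 2.70 (SE 0.26, edgeR adjusted p = 0.000598). *PRM10* had 151, 351 and 140.0 in wild-type and 2029, 1873 and 1980.1 in *dbp2Δ* (log2 fold change 3.20, SE 0.35, edgeR adjusted p = 0.00102). YJL107C had 225, 373 and 146 in wild-type and 2420.0, 2037 and 2186 in *dbp2Δ* (log2 fold change 3.16, SE 0.32, edgeR adjusted p = 0.000788). Wild-type replicate 2 was the highest wild-type library for all 3, and no wild-type library reached *dbp2Δ*. The change of *PRM10* minus that of YJL107C was 0.06 (SE 0.19, edgeR adjusted p = 0.804). The transcript rose less than *PRM10* (log2 change -0.53, SE 0.11, edgeR adjusted p = 0.0306) and less than YJL107C (log2 change -0.48, SE 0.10, edgeR adjusted p = 0.0313). The call against *PRM10* was lost without wild-type replicate 3 (-0.46, adjusted p = 0.0503) and without *dbp2Δ* replicates 1, 2 and 3 (edgeR adjusted p of 0.0916, 0.0917 and 0.095). That against YJL107C was lost without wild-type replicate 2 (-0.54, adjusted p = 0.063) and without *dbp2Δ* replicates 1, 2 and 3 (edgeR adjusted p of 0.105, 0.0821 and 0.0925). The shared stretches came to 65.2% in wild-type and 91.6% in *dbp2Δ*, as percentages of the transcript count.

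At *POA1/FUR4*, an XUT of the minus strand at chrII:281281-283948, the genes differed. *FUR4* encodes the uracil permease, the transporter of the molecule of which the label 4-thiouracil is an analog, and *POA1* a phosphatase that acts on an ADP-ribose derivative. The transcript had 623, 607 and 533 in wild-type and 2928, 2724 and 2839 in *dbp2Δ* and rose by 2.27 (SE 0.14, edgeR adjusted p = 8.9e-05). *FUR4*, wholly covered, had 491, 453 and 366 in wild-type and 2782, 2576 and 2724 in *dbp2Δ* (log2 fold change 2.62, SE 0.14, edgeR adjusted p = 4.73e-05). *POA1*, with 211 of the 534 bp covered, had 206, 250.3 and 324 in wild-type and 167, 228 and 161 in *dbp2Δ* (log2 fold change -0.49, SE 0.22, edgeR adjusted p = 0.112), which passed only without wild-type replicate 1 (-0.63, adjusted p = 0.048). The change of *POA1* minus that of *FUR4* was -3.11 (SE 0.32, edgeR adjusted p = 0.000906). Against *POA1* the transcript rose by 2.76 (SE 0.27, edgeR adjusted p = 0.00303), and against *FUR4* the ratio change was -0.36 (SE 0.05, edgeR adjusted p = 0.00922). Together the shared stretches came to 91.8% in wild-type and 97.8% in *dbp2Δ*, as percentages of the transcript count.

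**Figure D3:**
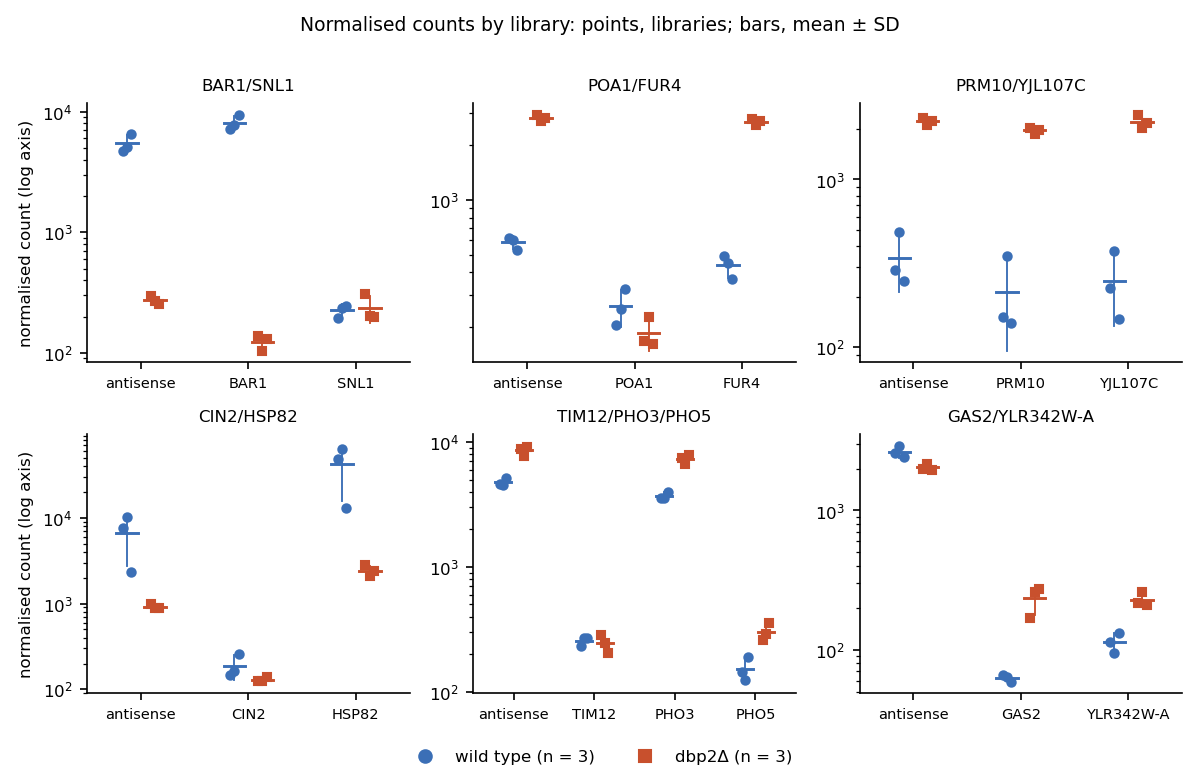
Normalised counts on a log axis for 6 loci, each with the antisense transcript and the genes opposite it (circles, wild-type libraries; squares, *dbp2Δ* libraries; bars, mean ± SD, n = 3). At *BAR1/SNL1* and *POA1/FUR4* 1 gene moved with the transcript while *SNL1* and *POA1* overlapped between strains, and at *GAS2/YLR342W-A* both genes rose below a transcript that did not pass the test.

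At *CIN2/HSP82* the gene that shares fewer bases with the transcript was the one called. *HSP82*, which encodes the Hsp90 chaperone, shares 173 of the 2130 bp of its reading frame, at the 3′ end, with this XUT of the plus strand at chrXVI:95430-96668, and *CIN2*, a tubulin folding factor, shares 829 of the 887 bp. The transcript had 7523, 10111 and 2357 in wild-type and 987, 879 and 897 in *dbp2Δ*, and changed by -2.85 (SE 0.48, edgeR adjusted p = 0.00363). *HSP82* had 48722, 63950.0 and 13107 in wild-type and 2783, 2087 and 2372 in *dbp2Δ* (log2 fold change -4.12, SE 0.56, edgeR adjusted p = 0.00205). Wild-type replicate 3 was the lowest wild-type library for both, but still above all *dbp2Δ* libraries. *CIN2* had 145, 162 and 258 in wild-type and 125, 126 and 137 in *dbp2Δ* (log2 fold change -0.54, SE 0.24, edgeR adjusted p = 0.109), and passed only without wild-type replicate 1 (-0.70, adjusted p = 0.0464). All wild-type libraries of *CIN2* were nevertheless above all *dbp2Δ* libraries. The change of *CIN2* minus that of *HSP82* was 3.40 (SE 0.78, edgeR adjusted p = 0.0138), which was not called without *dbp2Δ* replicate 2 (3.32, adjusted p = 0.0533) or 3 (3.35, adjusted p = 0.0519). It moved most without a wild-type library, with values for replicate 2 left out (2.80, adjusted p = 0.048) and for replicate 3 left out (4.30, adjusted p = 6.23e-06). The shared stretches of both genes came to 53.7% in wild-type and 34.5% in *dbp2Δ*, as percentages of the transcript count.

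The remaining named rises were those of YPR077C/YPR078C, *SMP1*/YBR182C-A, YHL042W/*ECM34* and YBR116C/*TKL2*. The *SMP1* transcript lies opposite a transcription factor of the osmotic stress response and had 172, 225 and 142 in wild-type and 653, 564 and 560.1 in *dbp2Δ* (log2 fold change 1.72, SE 0.18, edgeR adjusted p = 0.000756), while *SMP1* rose by 1.94 (SE 0.21, edgeR adjusted p = 0.00102). The *TKL2* transcript lies opposite a transketolase of the pentose phosphate pathway and had 133, 143 and 188 in wild-type and 313, 384 and 378 in *dbp2Δ* (log2 fold change 1.21, SE 0.17, edgeR adjusted p = 0.00181), while *TKL2* itself rose by 2.03 (SE 0.30, edgeR adjusted p = 0.00273). The transcript YPR077C/YPR078C was scarce, with 32.0, 32.6 and 23.3 in wild-type and 139, 94.2 and 96.6 in *dbp2Δ* (log2 fold change 1.90, SE 0.25, edgeR adjusted p = 0.00172). At YHL042W/*ECM34*, genes with few counts, the transcript had 127, 161 and 144 in wild-type and 361, 347 and 308 in *dbp2Δ* (log2 fold change 1.23, SE 0.14, edgeR adjusted p = 0.000979) and the genes summed to 20.1% of the transcript count in wild-type and 16.7% in *dbp2Δ*. These 4 did not overlap between strains and the call held in all 6 fits that each left out 1 library. As percentages of the transcript count, the shared stretches came to 71.9% in wild-type and 81.5% in *dbp2Δ* at *SMP1*/YBR182C-A. At YBR116C/*TKL2* they came to 31.8% in wild-type and 56.2% in *dbp2Δ*.

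The remaining named falls were those of *SNA4*/YDL124W, YNL134C/*FYV6*, *PYC2*/YBR219C and *AIM26/RGT1*. *SNA4*/YDL124W spans a vacuolar membrane protein and a keto reductase whole, and its transcript had 1697, 4763 and 3635 in wild-type and 1364, 1027 and 1255 in *dbp2Δ* (log2 fold change -1.47, SE 0.35, edgeR adjusted p = 0.0124). It was not called without *dbp2Δ* replicate 2 (-1.36, adjusted p = 0.0577) or 3 (-1.50, adjusted p = 0.0517). Both genes were called lower too, with log2 fold changes of -0.86 for *SNA4* and -1.80 for YDL124W. They summed to 91.0% of the transcript count in wild-type and 82.2% in *dbp2Δ*. YNL134C/*FYV6* had 1199, 2084 and 2273 in wild-type and 719, 729 and 682 in *dbp2Δ* (log2 fold change -1.38, SE 0.24, edgeR adjusted p = 0.00397), while YNL134C fell by 1.72 (SE 0.26, edgeR adjusted p = 0.00298) and *FYV6* did not pass (log2 fold change -0.15, SE 0.20, edgeR adjusted p = 0.566). *PYC2*/YBR219C shares 271 bp with *PYC2*, a pyruvate carboxylase, and had 762, 881 and 1712 in wild-type and 455, 436 and 401 in *dbp2Δ* (log2 fold change -1.38, SE 0.29, edgeR adjusted p = 0.00862). Wild-type replicate 3 was the highest library for it. The shared stretches of its genes came to 69.7% in wild-type and 81.1% in *dbp2Δ*, as percentages of the transcript count. *AIM26/RGT1* touches 87 bp of *RGT1*, the repressor of hexose transporter genes, and had 176, 231 and 221 in wild-type and 74.9, 86.4 and 99.97 in *dbp2Δ* (log2 fold change -1.26, SE 0.18, edgeR adjusted p = 0.00215), while *RGT1* fell by 0.57 (SE 0.11, edgeR adjusted p = 0.00611).

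A transcript and a gene opposite it did not always change by the same amount. The change in the ratio of transcript to gene was tested for 305 of the 334 combinations. The ratio rose in 41 and fell in 39, which is 26.2% called against 14.5% of all 2251 combinations tested, the members included, of which 7.51% rose and 6.97% fell. The difference between these shares was not tested. A transcript opposite genes that change by different amounts must part from at least 1 of them. Most of all combinations hold a transcript opposite a single gene, so the shares do not compare like with like. The fit also took transcript and gene counts as separate, although they may share reads. With antisense counts scaled on their own totals, 32 rose and 49 fell. For the first gene along the transcript 35 of 151 ratios were called (23 up and 12 down), and for the last gene 42 of 145 (17 up and 25 down). The median absolute ratio change was 0.31 for first genes, 0.28 for last genes and 0.15 over all combinations. For genes wholly covered 26 of 104 were called, and for genes covered to under 10% 17 of 59. The called ratios numbered 46 without wild-type replicate 2, and 37, 42 and 34 without *dbp2Δ* replicates 1, 2 and 3.

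With several genes tested, a transcript can part from 1 gene and keep to another. In 135 members at least 2 genes entered this test, and of the genes with the most and the least shared bases neither ratio was called in 82, 1 of them in 32 and both in 21. Where both were called, they went in opposite directions in 17 members, so that the change of the transcript lay between those of its genes. The change of the transcript was nearer to that of the gene with more shared bases in 81 of 135 members, and nearer to that of the gene with more counts in the shared stretch in 106. These are descriptions, since transcript and gene were counted in the same libraries and over the same DNA.

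**Figure D4:**
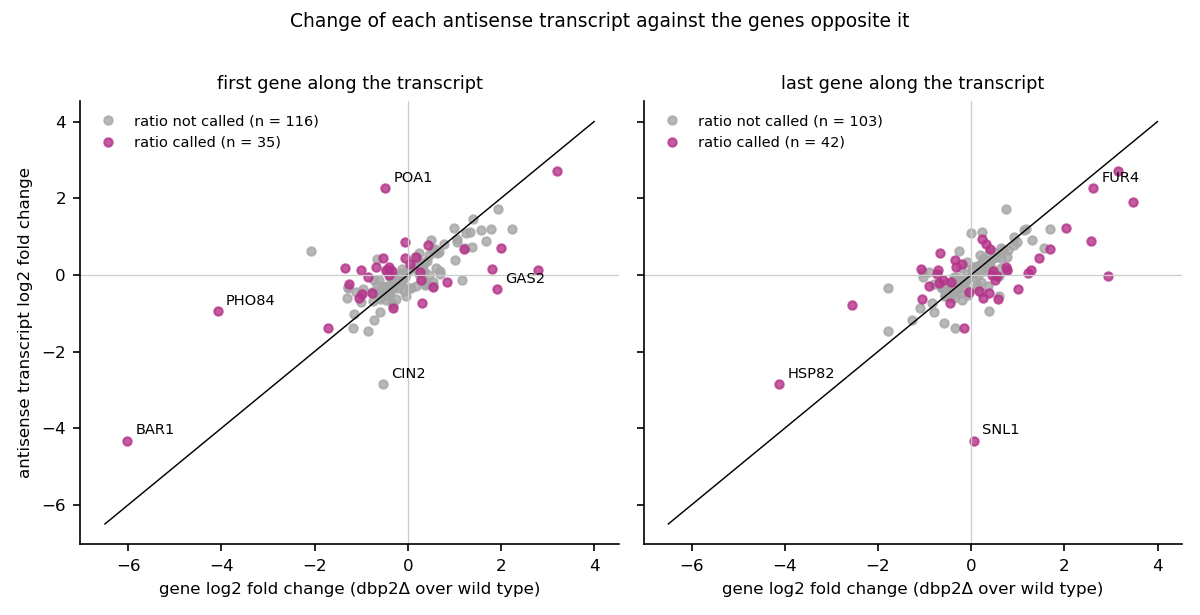
Log2 fold change of the antisense transcript against that of the first (left) and the last (right) gene opposite it, 1 point per combination tested. Grey points are ratios not called, magenta points are called ratios (35 and 42), and the line marks equal change, with *SNL1* and *POA1* far from it and *FUR4* close to it.

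Several of the largest ratio changes came from transcripts that did not pass the test themselves. *GAS2*/YLR342W-A is an XUT of the minus strand at chrXII:815758-818469 that covers *GAS2*, a glucan-remodelling enzyme of spore wall assembly, and YLR342W-A whole. The transcript had 2569, 2891 and 2409 in wild-type and 1997, 2164 and 1945 in *dbp2Δ* (log2 fold change -0.37, SE 0.15, edgeR adjusted p = 0.0779), which passed without wild-type replicate 3 (-0.43, adjusted p = 0.0234) and with DESeq2 (-0.36, adjusted p = 0.0304). *GAS2* had 65.6, 63.4 and 59.1 in wild-type and 170.1, 262 and 275 in *dbp2Δ* and rose by 1.91 (SE 0.22, edgeR adjusted p = 0.00129). YLR342W-A had 113, 94.3 and 131 in wild-type and 218, 258 and 209 in *dbp2Δ* (log2 fold change 1.01, SE 0.19, edgeR adjusted p = 0.00546). The ratio of transcript to gene fell for *GAS2* (log2 change -2.27, SE 0.20, edgeR adjusted p = 0.00215) and for YLR342W-A (log2 change -1.37, SE 0.18, edgeR adjusted p = 0.00668). Both genes summed to only 6.70% of the transcript count in wild-type and 22.8% in *dbp2Δ*. *ZIP2/RMR1* spans the 5′ part of *ZIP2*, a factor of meiotic chromosome synapsis, and all of *RMR1*, which acts in meiotic recombination, and had 235, 229 and 257 in wild-type and 294, 259 and 245 in *dbp2Δ* (log2 fold change 0.15, SE 0.13, edgeR adjusted p = 0.371). Its ratio to *ZIP2* changed by -1.67 (SE 0.36, edgeR adjusted p = 0.0319), a call that was lost without wild-type replicate 2 (-1.53, adjusted p = 0.0968) or *dbp2Δ* replicates 1, 2 and 3 (edgeR adjusted p of 0.0787, 0.105 and 0.104). Its ratio to *RMR1* rose by 1.22 (SE 0.10, edgeR adjusted p = 0.00184).

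At *QDR1/QDR2*, which encode multidrug transporters, the transcript had 2933, 3268 and 2919 in wild-type and 1821, 1831 and 1834 in *dbp2Δ* and fell by 0.73 (SE 0.14, edgeR adjusted p = 0.006). *QDR2*, wholly covered, fell by 0.83 (SE 0.11, edgeR adjusted p = 0.00186), and *QDR1* did not pass (log2 fold change 0.31, SE 0.14, edgeR adjusted p = 0.114). The ratio of transcript to *QDR1* fell by 1.03 (SE 0.10, edgeR adjusted p = 0.00315). The shared stretches of both genes came to 96.4% in wild-type and 93.6% in *dbp2Δ*, as percentages of the transcript count. How far reads of *QDR2* set the fall of the transcript was not tested. At *PXA2/FAT3*, genes of fatty acid transport, the ratio of the transcript to *FAT3* rose by 1.24 (SE 0.09, edgeR adjusted p = 0.00155). The transcript had 176, 186 and 261 in wild-type and 272, 306 and 346 in *dbp2Δ* (log2 fold change 0.57, SE 0.18, edgeR adjusted p = 0.037). Of the fits that left out 1 library it was called only in that without wild-type replicate 3, with edgeR adjusted p of 0.0586 to 0.136 in the other 5. *FAT3* had 81.2, 89.1 and 131 in wild-type and 57.2, 58.1 and 72.7 in *dbp2Δ* (log2 fold change -0.68, SE 0.26, edgeR adjusted p = 0.0672), and passed only without wild-type replicate 1 (-0.81, adjusted p = 0.0446). At *EDS1*/YBR032W, opposite a zinc cluster transcription factor, the transcript rose by 0.88 (SE 0.12, edgeR adjusted p = 0.00172) and YBR032W by 2.58 (SE 0.35, edgeR adjusted p = 0.00198). The ratio to YBR032W changed by -1.69 (SE 0.30, edgeR adjusted p = 0.0197), and it was not called without wild-type replicate 2 (-1.56, adjusted p = 0.0691) or without *dbp2Δ* replicates 1 (-1.70, adjusted p = 0.0686), 2 (-1.79, adjusted p = 0.0505) or 3 (-1.58, adjusted p = 0.0715).

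Genes opposite the same transcript changed by different amounts in about as large a share of pairs as neighbouring genes did. Of 181 such pairs 150 were tested, and the genes of 54 changed by different amounts (36.0%, against 39.4% of 5383 tested pairs, which are the neighbouring genes on each strand and the members’ own pairs). The median absolute difference was 0.59 on the log2 scale, against 0.57 over all pairs. Both genes rose in 13 pairs, both fell in 5, they were called in opposite directions in 9, 1 gene alone was called in 64, and neither was in 59. The called differences numbered 30 without wild-type replicate 2, and 29, 30 and 30 without *dbp2Δ* replicates 1, 2 and 3.

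**Figure D5:**
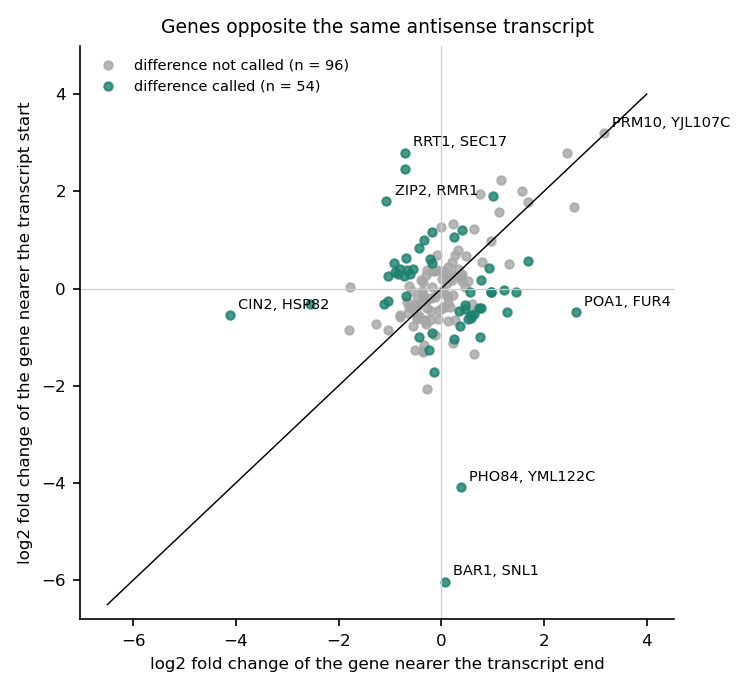
Log2 fold changes of the 2 genes of each of 150 tested pairs opposite the same antisense transcript (vertical, the gene nearer the transcript start; horizontal, the gene nearer its end; the line marks equal change). The 54 called differences (green) lie away from the line, and *PRM10* with YJL107C lies on it.

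The 9 pairs called in opposite directions belong to 8 members. The largest difference among them was at *RRT1/MOH1/SEC17*, where *SEC17*, the α-SNAP of membrane fusion, shares 66 bp with the transcript. *SEC17* had 910.2, 984 and 908 in wild-type and 589, 551 and 566 in *dbp2Δ* and fell by 0.72 (SE 0.10, edgeR adjusted p = 0.00191), whereas *MOH1*, a gene known from stationary phase, had 2.59, 16.3 and 17.9 in wild-type and 80.3, 58.1 and 67.0 in *dbp2Δ* and rose by 2.46 (SE 0.53, edgeR adjusted p = 0.00938). *RRT1*, a reading frame that may not encode a protein, had 1.73, 2.57 and 4.67 in wild-type and 14.97, 33.5 and 17.04 in *dbp2Δ* and rose by 2.80 (SE 0.54, edgeR adjusted p = 0.00636). The transcript itself had 457, 450.0 and 475 in wild-type and 521, 508 and 481 in *dbp2Δ* (log2 fold change 0.13, SE 0.11, edgeR adjusted p = 0.369), and the change of *SEC17* was below that of *RRT1* (log2 difference 3.49, SE 0.50, edgeR adjusted p = 0.00255) and of *MOH1* (log2 difference 3.22, SE 0.50, edgeR adjusted p = 0.00342). At *ZIP2/RMR1*, *ZIP2* rose by 1.80 (SE 0.41, edgeR adjusted p = 0.0118), and without wild-type replicate 3 by more (2.44, adjusted p = 0.000242). *RMR1* fell by 1.07 (SE 0.21, edgeR adjusted p = 0.00668), and the change of *ZIP2* minus that of *RMR1* was 2.99 (SE 0.43, edgeR adjusted p = 0.00275).

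At *AIM32/GAL80* and *GYP5/GAL4* the transcripts cover *GAL80*, the repressor of the galactose genes, and *GAL4*, their activator. *GAL80* had 832, 825 and 765 in wild-type and 596, 604 and 595 in *dbp2Δ* and fell by 0.43 (SE 0.09, edgeR adjusted p = 0.0103), and *AIM32* rose by 0.84 (SE 0.16, edgeR adjusted p = 0.00595). The *AIM32/GAL80* transcript did not pass (log2 fold change -0.20, SE 0.11, edgeR adjusted p = 0.193). *GAL4* had 124, 115 and 103 in wild-type and 195, 170.3 and 169 in *dbp2Δ* (log2 fold change 0.64, SE 0.17, edgeR adjusted p = 0.0181), and its call was lost without *dbp2Δ* replicates 1, 2 and 3 (edgeR adjusted p of 0.0726, 0.0576 and 0.0524). *GYP5*, a regulator of vesicle transport that shares its first 22 bp, fell by 0.53 (SE 0.14, edgeR adjusted p = 0.0225), but not without wild-type replicate 2 (-0.50, adjusted p = 0.0647) or *dbp2Δ* replicates 1, 2 and 3 (edgeR adjusted p of 0.0508, 0.0906 and 0.0617). The difference between *GYP5* and *GAL4* was -1.17 (SE 0.17, edgeR adjusted p = 0.00286), and it was called in every fit that left out 1 library. The transcript rose by 0.45 (SE 0.12, edgeR adjusted p = 0.0201), with 478, 482 and 490.2 in wild-type and 702, 595 and 682 in *dbp2Δ*, and was not called without *dbp2Δ* replicate 1 (0.40, adjusted p = 0.0778) or 3 (0.42, adjusted p = 0.0752).

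The other 4 members with genes called in opposite directions were *MBR1/YJU3*, *SMF3/MLH2*, YBR062C/*CNM1* and *NCE101/RCY1*. *YJU3*, a monoglyceride lipase, shares the 30 bp shown above with its transcript, and had 1752 ± 165 in wild-type and 1382 ± 78.7 in *dbp2Δ* (mean ± SD, n = 3), against 81.5 ± 16.6 in wild-type and 163 ± 30.1 in *dbp2Δ* (mean ± SD, n = 3) for *MBR1*, a gene of growth on respiratory carbon sources. The change of *MBR1* minus that of *YJU3* was 1.35 (SE 0.22, edgeR adjusted p = 0.00381). *SMF3*, a vacuolar iron transporter, and *MLH2*, a mismatch repair protein, differed in their change, first minus second, by -1.20 (SE 0.23, edgeR adjusted p = 0.00761). YBR062C and *CNM1*, a protein of contacts between nucleus and mitochondria, differed in their change by -1.17 (SE 0.18, edgeR adjusted p = 0.00362). *NCE101* and *RCY1*, an F-box protein of membrane recycling, differed in their change by -1.15 (SE 0.19, edgeR adjusted p = 0.00443). All 4 differences held in every fit that left out 1 library, but the calls of *YJU3*, YBR062C and *NCE101* each failed in at least 4 of those 6 fits, and that of *MLH2* without *dbp2Δ* replicates 1, 2 and 3 (edgeR adjusted p of 0.0636, 0.0665 and 0.0801).

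Of the members opposite phosphate genes 1 rose and 1 did not pass, while *PHO3* and *PHO5* rose and *PHO84* fell. Over all features 42.1% of transcripts and 41.9% of genes were called, and with 2 members and 3 genes the difference was not tested. *PHO3* and *PHO5* encode secreted acid phosphatases and *PHO84* a phosphate transporter of the plasma membrane. *TIM12/PHO3/PHO5*, an XUT of the plus strand at chrII:427127-431732, is the only member that covers 3 genes whole, and had 4599, 4507 and 5183 in wild-type and 8764, 7814 and 9169 in *dbp2Δ* (log2 fold change 0.85, SE 0.19, edgeR adjusted p = 0.0101). *PHO3* had 3575, 3586 and 4022 in wild-type and 7467, 6622 and 7855 in *dbp2Δ* (log2 fold change 0.97, SE 0.13, edgeR adjusted p = 0.00203). *PHO5* had 145, 125 and 189 in wild-type and 259, 290.3 and 354 in *dbp2Δ* (log2 fold change 0.98, SE 0.20, edgeR adjusted p = 0.00859). For all 3 features the strains did not overlap. *TIM12*, a factor of mitochondrial protein import, had 233, 267 and 268 in wild-type and 286, 246 and 203 in *dbp2Δ* (log2 fold change -0.07, SE 0.16, edgeR adjusted p = 0.761), and the transcript rose against it by 0.92 (SE 0.15, edgeR adjusted p = 0.0151), a call lost only without wild-type replicate 2 (0.85, adjusted p = 0.0512). The 3 genes summed to 86.9% of the transcript count in wild-type and 91.6% in *dbp2Δ*. The transcript count beyond these genes was 646, 528 and 704 in wild-type and 753, 655 and 757 in *dbp2Δ*, and there the strains overlapped. How far reads of the genes set the rise of the transcript was not tested.

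*PHO84*/YML122C, a CUT of the plus strand at chrXIII:23944-26104, had 3036, 2365 and 687 in wild-type and 1003, 999 and 1138 in *dbp2Δ*, and the strains overlapped (log2 fold change -0.95, SE 0.45, edgeR adjusted p = 0.121). Wild-type replicate 3 lay below all *dbp2Δ* libraries, and without it the transcript was called (-1.37, adjusted p = 0.000189). *PHO84* had 2566, 1973 and 183 in wild-type and 116, 80.0 and 84.1 in *dbp2Δ* (log2 fold change -4.08, SE 0.87, edgeR adjusted p = 0.00921), and wild-type replicate 3 was again the lowest wild-type library. In wild-type replicates 1 and 2 the *PHO84* count came to most of the transcript count, and in every other library to a minor part. The transcript count beyond that of *PHO84* was larger in every *dbp2Δ* library than in any wild-type library. How far reads of *PHO84* set the change of the transcript was not tested. The reading frame YML122C, of which the transcript covers 67 bp, had 13.8, 12.9 and 10.9 in wild-type and 14.97, 19.4 and 14.8 in *dbp2Δ* (log2 fold change 0.38, SE 0.32, edgeR adjusted p = 0.358). The change of *PHO84* minus that of YML122C was -4.09 (SE 0.90, edgeR adjusted p = 0.0116), which was not called without *dbp2Δ* replicate 2 (-3.82, adjusted p = 0.0554). It was smaller without wild-type replicate 1 (-3.48, adjusted p = 0.0237) and larger without replicate 3 (-4.90, adjusted p = 4.09e-05). The ratio of transcript to *PHO84* rose by 2.84 (SE 0.53, edgeR adjusted p = 0.0222), and this call was lost without wild-type replicate 2 (2.59, adjusted p = 0.0673) and without *dbp2Δ* replicates 1 (3.03, adjusted p = 0.0697), 2 (2.76, adjusted p = 0.0821) and 3 (2.69, adjusted p = 0.0874).

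Both transcripts run past the start codon of a gene that the transcription factor Pho4 activates when phosphate is scarce. Pho4 binds the letters CACGTG, a palindrome that reads the same on both strands. Only these exact letters were searched, so other sites that Pho4 may bind were not counted. In the 500 bp before the start codon CACGTG occurs at 1 position at *PHO5* and at 2 positions at *PHO84*, and not at *PHO3* or *TIM12*. Of 6000 protein-coding genes 6.23% hold it in the same window, and of 302 genes opposite members 5.96%. The site of *PHO5* (chrII:431187-431216, minus strand) lies inside the *TIM12/PHO3/PHO5* transcript, 253 bp before the start codon. The nearer site of *PHO84* (chrXIII:26197-26226, minus strand) lies 414 bp before the start codon, outside the *PHO84*/YML122C transcript. The sites are shown in capitals on the strand of the gene, and a match of letters is not evidence of binding in these cells.
PHO5 site: ccttggcactcaCACGTGggactagcacag
PHO84 site: tgttatttccagCACGTGgggcggaaatta

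Of 10 members opposite genes of plasma membrane transport 2 rose, 1 fell and 7 did not pass, with a median log2 fold change of -0.30, and of 11 such genes 2 rose and 3 fell, against 42.1% called of all transcripts and 41.9% of all genes. Besides *POA1/FUR4* and *QDR1/QDR2*, YOR381W-A/*FRE3* was called, opposite a reductase of iron siderophores, with 44.9, 44.6 and 49.8 in wild-type and 108, 121 and 89.7 in *dbp2Δ* (log2 fold change 1.19, SE 0.20, edgeR adjusted p = 0.0037). Of 10 members opposite genes of carbon and nitrogen metabolism 4 rose, 2 fell and 4 did not pass (median 0.16). Of the 11 genes in this group, which include the kinase regulator gene *BCY1*, 5 rose and 3 fell. Over all features the shares called were again 42.1% of transcripts and 41.9% of genes, and no test of the difference was made. *GDH2/PRR2* lies opposite 386 bp of *GDH2*, the glutamate dehydrogenase of nitrogen catabolism, and all of the kinase gene *PRR2*, and had 385, 354 and 393 in wild-type and 957, 799 and 679 in *dbp2Δ* (log2 fold change 1.10, SE 0.15, edgeR adjusted p = 0.00185). *GDH2* rose by 1.26 (SE 0.16, edgeR adjusted p = 0.00178) whereas *PRR2* did not pass (log2 fold change -0.01, SE 0.37, edgeR adjusted p = 0.991). *BCY1*/YIL032C, opposite the regulatory subunit of protein kinase A, had 1531, 2158 and 1551 in wild-type and 852, 743 and 984 in *dbp2Δ* (log2 fold change -1.02, SE 0.19, edgeR adjusted p = 0.00537), and *BCY1* fell by 1.16 (SE 0.19, edgeR adjusted p = 0.00345).

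Of 5 members opposite chaperone and stress genes 1 rose and 2 fell (median -0.69). Of the 5 genes in this group, which include the spore wall gene *SPS100*, 3 fell and 2 did not pass. Over all features 18.7% of transcripts and 21.9% of genes fell, and the difference from these shares was not tested. *RTT105/SSA4* meets *SSA4*, a heat-inducible Hsp70, by the 9 bp shown above and had 194, 328 and 215 in wild-type and 139, 141 and 147 in *dbp2Δ* (log2 fold change -0.79, SE 0.21, edgeR adjusted p = 0.0199). *SSA4* had 2709.8, 5484 and 1387 in wild-type and 494, 564 and 568 in *dbp2Δ* (log2 fold change -2.56, SE 0.45, edgeR adjusted p = 0.00478), and wild-type replicate 3 was the lowest wild-type library. The fall of *SSA4* was smaller without wild-type replicate 2 (-1.92, adjusted p = 0.00575). The transcript call was lost without *dbp2Δ* replicates 1, 2 and 3 (edgeR adjusted p of 0.0676, 0.0681 and 0.061), and the ratio to *SSA4* (log2 change 1.62, SE 0.40, edgeR adjusted p = 0.0495) was called in only 1 of the 6 fits that left out a library, that without wild-type replicate 3 (2.02, adjusted p = 0.000695). *SPS100*/YHR139C-A, opposite a spore wall gene, rose by 0.51 (SE 0.15, edgeR adjusted p = 0.0298), but not without wild-type replicate 2 (0.43, adjusted p = 0.0868) or *dbp2Δ* replicates 2 (0.48, adjusted p = 0.101) and 3 (0.45, adjusted p = 0.106).

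Of 12 members opposite transcription genes 3 rose and 2 fell (median 0.03), and of their 12 genes 4 rose and 2 fell, beside the 42.1% of all transcripts and 41.9% of all genes that were called. Of 4 opposite mating genes 1 rose and 1 fell, those at *PRM10* and *BAR1*, as did these genes. *MEI4/ACA1*, opposite a meiotic recombination gene and a bZIP transcription factor, had 345, 544 and 338 in wild-type and 953, 842 and 958 in *dbp2Δ* (log2 fold change 1.17, SE 0.20, edgeR adjusted p = 0.00428). *MEI4* rose by 1.57 (SE 0.23, edgeR adjusted p = 0.00267) and *ACA1* by 1.13 (SE 0.21, edgeR adjusted p = 0.0062), and the ratio changes of the transcript did not pass (log2 change -0.36, SE 0.33, edgeR adjusted p = 0.541 for *MEI4* and log2 change 0.03, SE 0.04, edgeR adjusted p = 0.757 for *ACA1*). Over all transcripts tested the median log2 fold change was 0.05, and over all genes tested -0.01.

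Of the 10 members opposite 3 genes 1 passed the test, *TIM12/PHO3/PHO5*, where 38.3% of the members and 42.1% of all transcripts did. *FCY22/FCY21/PCL6* lies opposite a pair of purine-cytosine permease genes and a cyclin of the kinase Pho85, and had 1180.5, 1289 and 1599 in wild-type and 1062, 1072 and 1143 in *dbp2Δ* (log2 fold change -0.31, SE 0.15, edgeR adjusted p = 0.131). *FCY21* in the middle fell by 0.91 (SE 0.11, edgeR adjusted p = 0.00137), while *FCY22* did not pass (log2 fold change 0.53, SE 0.21, edgeR adjusted p = 0.0792), and they differed by 1.45 (SE 0.22, edgeR adjusted p = 0.00336). YKL115C/*APN1/RAD27*, opposite enzymes of DNA repair, had 1352, 1187 and 1132 in wild-type and 1158, 1133 and 1174 in *dbp2Δ* (log2 fold change -0.08, SE 0.13, edgeR adjusted p = 0.633). *APN1* changed by 0.14 (SE 0.09, edgeR adjusted p = 0.254) and *RAD27* by -0.35 (SE 0.17, edgeR adjusted p = 0.121), which passed only without wild-type replicate 3 (-0.47, adjusted p = 0.0267). YBR196C-B/YBR197C/*TAF5* had 902, 993 and 1250.3 in wild-type and 874, 884 and 888 in *dbp2Δ* (log2 fold change -0.25, SE 0.15, edgeR adjusted p = 0.214), although *TAF5*, a subunit of TFIID and SAGA, had 2968, 2740.4 and 2412 in wild-type and 1582, 1566 and 1522 in *dbp2Δ* and fell by 0.80 (SE 0.12, edgeR adjusted p = 0.00282). The transcript shares 41 bp with *TAF5*, and the ratio change was 0.55 (SE 0.20, edgeR adjusted p = 0.117), which passed only without wild-type replicate 3 (0.77, adjusted p = 0.00424).

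In 7 members the genes summed to under 25% of the transcript count in both strains, so that most of the transcript count lay outside the gene counts. Of these 4 rose and 3 did not pass, with log2 fold changes from -0.37 to 1.23 and a median of 0.51, where 23.4% of all transcripts rose. With 7 members this difference was not tested. YKL070W/*OSI1*, an XUT of 3602 bp that covers both genes whole, had 825, 679 and 708 in wild-type and 1127, 1284 and 1213 in *dbp2Δ* (log2 fold change 0.71, SE 0.13, edgeR adjusted p = 0.00579), with genes at 3.44% of the transcript count in wild-type and 6.56% in *dbp2Δ*. *CYB2*/YML054C-A, opposite the lactate dehydrogenase gene *CYB2*, had 373, 324 and 331 in wild-type and 528, 584 and 589.6 in *dbp2Δ* (log2 fold change 0.73, SE 0.12, edgeR adjusted p = 0.00333), with genes at 14.1% of the transcript count in wild-type and 22.5% in *dbp2Δ*. *RSB1*/YOR050C, opposite a transporter of sphingoid bases, had 555, 609 and 663 in wild-type and 704, 701 and 680.5 in *dbp2Δ* (log2 fold change 0.19, SE 0.12, edgeR adjusted p = 0.238). YPR170W-A/YPR170W-B/YPR169W-A did not pass either (log2 fold change 0.02, SE 0.20, edgeR adjusted p = 0.948), and the other 3 of the 7 are YHL042W/*ECM34*, *SPS100*/YHR139C-A and *GAS2*/YLR342W-A, described above. The loci named first in this paragraph, YKL070W/*OSI1* to YPR170W-A/YPR170W-B/YPR169W-A, were chosen after their values were seen.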

How the data were processed

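TT-seq libraries of 3 wild-type and 3 *dbp2Δ* cultures were made by the authors with a directional kit (NEBNext Ultra II Directional, per the labels). The authors deposited raw counts per gene and per antisense transcript, in whole reads and not normalised. Per the submitters' processing notes the R64 build, featureCounts and edgeR were used. The aligner, and whether strand was used in counting, were not found in the labels, the methods or the supplementary description of the data. The deposited antisense table lists each transcript with the gene opposite it, and rows with the same coordinates and strand were taken as 1 transcript. Positions were compared with the R64 annotation of RefSeq, in which 28 of the opposite reading frames had no entry.

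Counts were scaled by TMM factors of the gene counts, and normalised counts are counts at the mean effective library size. Low counts were filtered with filterByExpr. Tests were quasi-likelihood tests in edgeR 4.0.16 (R 4.3.3), over all transcripts or all genes, with strain as the only factor and Benjamini-Hochberg adjustment, called under an adjusted p of 0.05. Fold changes are *dbp2Δ* over wild-type on the log2 scale. The change in a ratio of transcript to gene, or in the difference between genes, was the interaction with strain in a fit over 12 columns that also held 1 term per library. Alternatives were DESeq2 1.42.0, limma-voom (limma 3.58.1), other scalings, no filter, a replicate block, leaving out each library, the longest transcripts only and a threshold of 0.25. Scripts were tested on simulated data, in which transcript and gene counts were drawn separately and so shared no reads.

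Named were the 6 largest called rises and falls of transcripts with a mean of at least 50 normalised counts and no overlap between strains. Also named were the 5 largest called differences between genes, all members with genes called in opposite directions, the 3 largest called ratios per direction for first and for last genes, the 4 largest called changes per gene group with all phosphate members, and the 4 members opposite 3 genes with the most counts. The members, the gene groups and these rules were chosen with earlier results of these data known. Motifs and sequences were read from R64.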

Additional observations from a re-analysis of the deposited data

How the results depend on the processing

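Over 128 named values, 1388 of 1502 alternative values kept direction and side of the threshold, 106 kept only the direction, 8 came to pass the threshold and 0 turned the direction. Leaving out 1 library at a time gave 38 to 72 called transcripts (24 to 38 up, 13 to 38 down), 76 to 143 genes (42 to 80 up, 33 to 74 down), 34 to 94 ratios (21 to 49 up, 13 to 45 down), 29 to 65 differences between genes and 13 to 28 members with every tested gene called the same way. With no filter on low counts 13 members had every tested gene called the same way, since more genes were then tested. At an adjusted p under 0.25 the counts were 105 transcripts (57 down), 197 genes (104 down), 155 ratios (75 up and 80 down), 88 differences between genes and 45 members with every gene called the same way. The members held 106054 to 205988 counts in a library, and an effect of depth was not tested.

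Same-numbered libraries did not deviate together (r = -0.087, -0.153 and -0.00039 between the deviations of replicates 1, 2 and 3 from their strain means), and no wild-type replicate correlated best with its own number. These correlations gave no sign that the numbers pair the samples. Whether same-numbered cultures were grown or prepared together cannot be told from them. With a replicate block 44 transcripts were called, of which 18 fell, and 52 ratios were called, 27 up and 25 down.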
